A study of Homo sapiens with 6 samples.

Results

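Cancer-testis antigens are proteins whose genes are normally read in male germ cells and are silent in most other adult tissues, but are often active in tumours. The families described here were taken by name from the deposited table: all protein-coding genes named MAGEA, MAGEB, MAGEC, XAGE, PAGE, GAGE, CTAG, SSX, CT45, CT47 or SPANX. This gave 101 of the 62753 genes in the table, 94 of them on chromosome X, 4 on chromosome 7 and 1 each on chromosomes 1, 6 and 18. The name rule also took 7 genes that belong to none of these families, SSX2IP, which encodes a centrosome protein that binds SSX2, and 6 CTAGE genes. Without them 94 members were left.

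Messenger RNA was sequenced in 6 libraries of the human cell line labelled HepG2, a line from a liver tumour. WT, the unedited genotype, and sgPARP1, in which PARP1 was knocked out with CRISPR-Cas9, had 3 libraries each. No other treatment is given in the labels, which say neither whether the sgPARP1 cells are 1 clone or a pool nor whether the libraries of a group came from separate cultures, and the spread behind each p-value here may thus be a technical one. The question addressed is how the loss of PARP1, an enzyme that attaches ADP-ribose chains to proteins at DNA breaks and on chromatin, changes the RNA of these cells.

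Most cancer-testis antigen genes lie in clusters on chromosome X, often as near-identical copies. In somatic cells their promoters are known to be kept silent by DNA methylation at CG dinucleotides, and inhibitors of DNA methylation switch many of them on in cultured cells. Peptides of several of these proteins are shown to T cells, which is what they are best known for, and MAGE proteins are also known as partners of RING-type ubiquitin ligases.

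The libraries held 14842498 to 17305129 reads in genes, worked out from the deposited values, and 21437 to 21903 genes with a read. PARP1 stood at 31.8, 31.5 and 31.5 FPKM (fragments scaled to gene length and sequencing depth) in WT and at 4.31, 4.23 and 4.39 in sgPARP1, and fell by 86.4% (log2 fold change -2.62, SE 0.037, adjusted p = 7.30e-07 with limma). Markers went against the label of the line in both groups. Of 17 hepatocyte genes none reached a mean of 0.5 FPKM, 9 were listed at 0 in every library, among them ALB, AFP, APOB, SERPINA1 and TTR, and their summed level was 0.108 to 0.476 FPKM in WT and 0.0163 to 0.225 FPKM in sgPARP1. Of 6 fibroblast genes 3 reached a mean of 0.5 FPKM and 1, COL1A2, was at 0, with a summed level of 18.1 to 19.9 FPKM in WT and 18.3 to 20.8 FPKM in sgPARP1, mostly from COL1A1. One of them, DCN, was lower in each sgPARP1 library, at 1.007, 1.037 and 1.16 FPKM in WT against 0.267, 0.376 and 0.247 FPKM, and its part in the results below was not tested. The 9 germ cell markers summed to 0.0504 to 0.208 FPKM in WT and 0.0960 to 0.167 FPKM in sgPARP1, with DAZL, SYCP1, PRM1, PRM2, TNP1 and ACR at 0. The 4 endothelial markers summed to 0.274 to 0.386 FPKM in WT and 0.212 to 0.267 FPKM in sgPARP1, with KDR at 0. The cells are therefore called by their label and genotype below, without a tissue.

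The promoters of 5 of the expressed members are shown because the results turn on pairs of them: XAGE2 and PAGE1, from neighbouring branches of 1 family, and MAGEA11, MAGEA12 and MAGEB2 from the MAGE family. Each is 300 bases from RefSeq on GRCh38.p14, 250 before and 50 from the start of transcription on, read 5′ to 3′ on the gene's own strand, and capitals mark CG dinucleotides, the sites of DNA methylation. XAGE2 is at chrX:52368771-52369070 on the plus strand, PAGE1 at chrX:49695935-49696234 on the minus strand, MAGEA11 at chrX:149711810-149712109, MAGEA12 at chrX:152733507-152733806 and MAGEB2 at chrX:30215313-30215612, the last 3 on the plus strand.
XAGE2: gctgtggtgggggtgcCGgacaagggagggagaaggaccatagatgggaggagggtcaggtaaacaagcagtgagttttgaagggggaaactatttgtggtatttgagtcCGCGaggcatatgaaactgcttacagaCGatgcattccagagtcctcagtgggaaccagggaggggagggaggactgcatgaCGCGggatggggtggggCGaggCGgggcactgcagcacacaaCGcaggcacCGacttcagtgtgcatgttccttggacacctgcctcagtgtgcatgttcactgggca
PAGE1: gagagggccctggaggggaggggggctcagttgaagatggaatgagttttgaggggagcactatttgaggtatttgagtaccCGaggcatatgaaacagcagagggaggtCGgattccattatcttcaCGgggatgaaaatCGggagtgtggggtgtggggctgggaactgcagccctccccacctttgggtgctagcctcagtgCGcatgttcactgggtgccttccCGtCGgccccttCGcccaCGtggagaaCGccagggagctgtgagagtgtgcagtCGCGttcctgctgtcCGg
MAGEA11: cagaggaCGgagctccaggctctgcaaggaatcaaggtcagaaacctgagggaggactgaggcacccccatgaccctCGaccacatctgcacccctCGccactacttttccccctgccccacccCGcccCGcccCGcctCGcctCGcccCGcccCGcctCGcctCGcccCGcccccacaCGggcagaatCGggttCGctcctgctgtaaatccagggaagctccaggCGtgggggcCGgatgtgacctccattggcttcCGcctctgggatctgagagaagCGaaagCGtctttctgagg
MAGEA12: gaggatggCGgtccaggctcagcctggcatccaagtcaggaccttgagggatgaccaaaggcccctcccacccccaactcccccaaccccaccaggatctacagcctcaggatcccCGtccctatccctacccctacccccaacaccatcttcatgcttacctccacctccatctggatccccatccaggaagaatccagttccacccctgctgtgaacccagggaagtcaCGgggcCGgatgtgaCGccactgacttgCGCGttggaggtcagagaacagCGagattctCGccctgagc
MAGEB2: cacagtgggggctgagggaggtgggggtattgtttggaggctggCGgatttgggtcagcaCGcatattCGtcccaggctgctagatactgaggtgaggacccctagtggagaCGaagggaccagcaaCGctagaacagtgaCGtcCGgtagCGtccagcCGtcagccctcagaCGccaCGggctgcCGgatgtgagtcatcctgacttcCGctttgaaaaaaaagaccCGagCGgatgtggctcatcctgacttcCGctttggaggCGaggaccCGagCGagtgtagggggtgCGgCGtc

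These windows held 10 CG dinucleotides in XAGE2, 13 in PAGE1, 21 in MAGEA11, 9 in MAGEA12 and 21 in MAGEB2. The median was 14 over all 35116 promoters of the RefSeq table and 12 over the 90 entries of members. A promoter was found for 73 members and for 28 none, MAGEA1 and CTAG2 among them. The MAGEA11 window belongs to a start 23832 bases inside the gene's span in the deposited table.

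The longest stretch shared by XAGE2 and PAGE1 was cgaggcatatgaaac, 15 bases from position 113 of the XAGE2 window and from position 83 of the PAGE1 window, and no other of the 35116 windows held it on either strand. The 3 MAGE windows shared gccggatgtga, 11 bases from position 235 in MAGEA11, 236 in MAGEA12 and 185 in MAGEB2, which 13 of all windows (0.0370%) held. Of the 23 MAGE genes with a window, 5 held it, the other two being MAGEA9 and its copy MAGEA9B. Both stretches were chosen after the sequences were compared. The 6 letters CCGGAT, which lie inside the longer MAGE stretch and are close to the core bound by ETS factors, were found on either strand in 7.12% of all windows and in those of 15 members. The ETS core CCGGAA was found in 17.2% of all windows and in those of 5 members, and the E-box CACGTG in 7.26% of all windows and in those of 22 members, PAGE1 included. GGGCGG, the core bound by SP1, was found 4 times on either strand in MAGEA11, in none of the other 4 windows shown and in 45.0% of all windows. A match is only a description of the letters, and no binding or methylation was measured here.

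Of the 101 members, 69 were listed at 0 in all 6 libraries and 32 had at least 1 read. Reads were few in most of these: 19 members had 1 to 9 reads over the 6 libraries and 13 had 10 or more. A mean of 0.5 FPKM, the level from which genes were tested, was reached by 8 members. The lowest of the 8 was MAGEA11 at a mean of 1.35 FPKM, and the highest below the threshold was MAGEA6 at 0.376 FPKM. A count of 0 allows for up to 3 reads in a library, which stand for 0.0553 to 1.70 FPKM depending on the member's length, and this limit covers counting error only. A value of 0 need not mean that no RNA was present, since EHMT2, a histone methyltransferase gene used by most cells, was also listed at 0 in all libraries.

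Whole families were without a read. All 13 GAGE, all 14 CT47 and all 10 SPANX genes were at 0, and so were CTAG1A and CTAG1B, the copies that encode the antigen NY-ESO-1. Of 9 CT45 genes 1 had a read, of 8 SSX genes 2, of 5 XAGE genes 1 and of 6 PAGE genes 3. The MAGE families were read more widely, with 10 of 12 MAGEA genes, 4 of 11 MAGEB genes and 3 of 3 MAGEC genes above 0, although no MAGEC gene had more than 3 reads over the 6 libraries. All 6 CTAGE genes had at least 1 read. The number of members with at least 1 read ranged from 14 to 18 in WT and from 17 to 19 in sgPARP1, and those ranges overlap. At least 10 FPKM was reached by 3 members in each WT library and by 5 in each sgPARP1 library, the 2 further genes being MAGEA1 and XAGE2.

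Near-identical copies limit which zeros can be read. For the 99 members whose ID is in GENCODE release 29, all 100-base stretches of the longest protein-coding transcript were taken. The share of these that occur in no transcript of another gene was computed. Among the 69 members at 0, 33 had under 10% of such stretches, 27 of them none, and 21 had at least 90%. Among the 12 members with 10 or more reads and an entry, none was under 10% and 7 were at or above 90%. Of the 14 CT47 genes 10 had no stretch of their own, and the median of the GAGE genes was 4.32%, whereas the median of the SPANX genes was 98.7%. The sources used here give neither the read length nor how reads with several matches were counted. The part of shared sequence in the zeros was not tested.

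**Figure D1:**
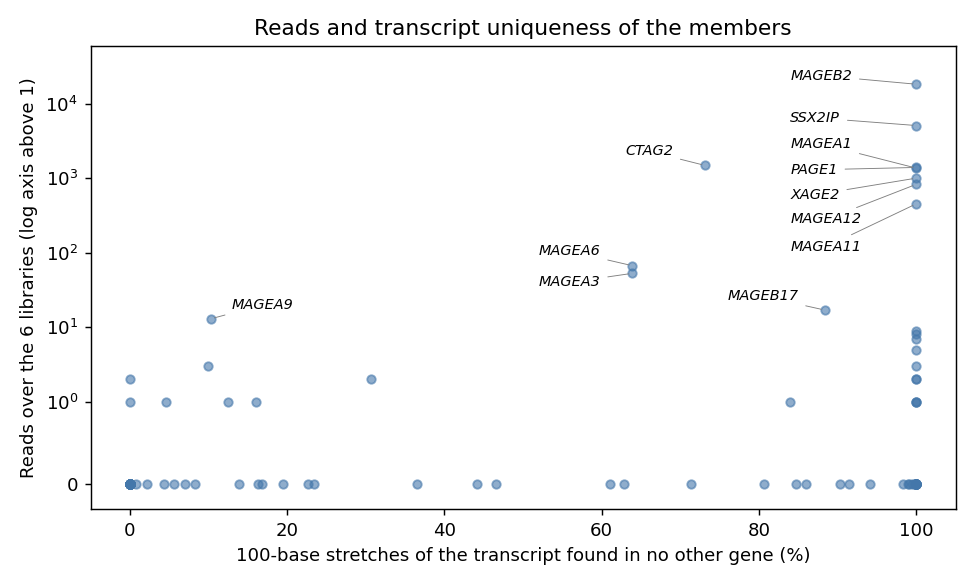
Each point is a member. The horizontal axis is the percent of 100-base stretches of its longest protein-coding transcript found in no other GENCODE 29 gene. The vertical axis is its reads summed over the 6 libraries (log axis above 1). Members at 0 spread over the whole range of uniqueness, and 7 of the 12 members with 10 or more reads lie at or above 90%.

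The transcripts of MAGEA1, MAGEA11, MAGEA12, MAGEB2, PAGE1, XAGE2 and SSX2IP were 100% unique by this measure. CTAG2 was unique in 73.2% and shared the rest mainly with CTAG1A, so part of its reads may belong to the NY-ESO-1 copies or be missing. MAGEA3 and MAGEA6 were unique in 63.9% each and shared the rest with each other, and MAGEA9 was unique in 10.3%, with MAGEA9B as its copy. Values of these 4 genes are uncertain for that reason. On 50-base stretches CTAG2 was unique in 55.0%, MAGEA3 in 43.8%, MAGEA6 in 43.4% and MAGEA9 in 6.0%. MAGEA12 was then unique in 91.2%, MAGEA1 in 99.3% and MAGEA11 in 99.6%, and MAGEB2, PAGE1, XAGE2 and SSX2IP stayed at 100%.

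Between genotypes, 3 of the 8 tested members were higher in sgPARP1, MAGEA1, XAGE2 and MAGEA11, each 3.35-fold to 3.77-fold in mean FPKM, and none was lower past the threshold. SSX2IP was 1 of the 8, and the 3 called were among the 7 that belong to the named families. The test was limma's moderated test on log2(FPKM + 1) with Benjamini-Hochberg adjustment at 0.05 over all 13167 genes that reached the level above. Of these genes 7.96% were called, 3.52% higher and 4.44% lower in sgPARP1. A log2 fold change of at least 1 with a higher call was found in 0.213% of the genes tested, 28 in number, among them MAGEA1 and XAGE2. The median log2 fold change was 0.14 over the 8 members and 0.0029 over all genes tested. At an unadjusted p under 0.05, 3 members were higher and 1, PAGE1, was lower, against 12.1% and 12.3% of all genes tested, so that 1 lower member of 8 is near the background. In bulk libraries, more cells with a transcript and more of it per cell cannot be told apart. The values of all libraries for the 8 members are shown in the plot of members by library.

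**Figure D2:**
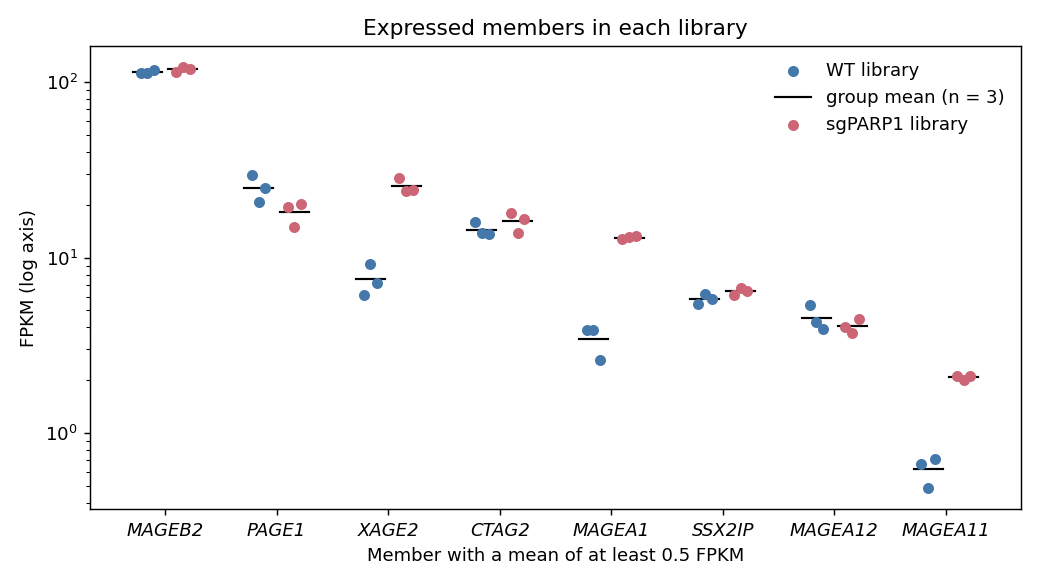
FPKM (log axis) of the 8 members with a mean of at least 0.5 FPKM; points are single libraries, lines the mean of 3 libraries per group. The sgPARP1 libraries lie apart from and above WT for MAGEA1, XAGE2 and MAGEA11, and below WT for PAGE1; the groups of the other 4 overlap.

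MAGEA1 (ENSG00000198681, chromosome X, 153179284 to 153183880, plus strand, hg38) encodes the MAGE antigen found as a target of cytotoxic T cells on melanoma. Its level was 3.86, 3.89 and 2.60 FPKM in WT, from 114, 115 and 67 reads, and 12.73, 13.05 and 13.26 FPKM in sgPARP1, from 341, 344 and 391 reads. Every sgPARP1 library was above every WT library, and the sgPARP1 libraries lay closer together than the WT libraries. The mean rose 3.77-fold, a log2 fold change of 1.67 (SE 0.119, 95% interval 1.39 to 1.95, limma adjusted p = 0.00066). This was the 7th highest log2 fold change of the 13167 genes tested.

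MAGEA11 (ENSG00000185247, chromosome X, 149688228 to 149717268, plus strand) encodes a MAGE protein known as a coregulator of the androgen receptor. It was a low gene, at 0.668, 0.484 and 0.709 FPKM in WT and 2.119, 2.003 and 2.109 FPKM in sgPARP1, from 29 to 40 and 107 to 126 reads per library. The groups did not overlap. The mean rose 3.35-fold, and on the scale of the test, where the added 1 shrinks the change of a low gene, by 0.93 (SE 0.084, 95% interval 0.73 to 1.13, limma adjusted p = 0.00175). On the recovered reads, tested with voom in limma, which adds no pseudocount of 1 FPKM, the log2 fold change was 1.75.

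MAGEA12, which lies 0.442 Mb from MAGEA1 in the same cluster and encodes another antigen of the MAGE-A group, was not called. Its level was 5.34, 4.27 and 3.92 FPKM in WT and 4.03, 3.70 and 4.49 FPKM in sgPARP1, and the groups overlapped. The log2 fold change was -0.11 (95% interval -0.37 to 0.14, limma adjusted p = 0.577). The lncRNA gene CSAG4, which overlaps it on the same strand, had 4 reads. MAGEA12 and MAGEA1 were compared within each library. Ratios of a called member to MAGEA12 follow in part from the calls and are no separate support for them. The ratio of MAGEA1 to MAGEA12 was 0.723, 0.911 and 0.663 in WT and 3.16, 3.53 and 2.95 in sgPARP1, which differs by 2.08 on the log2 scale (exact two-sided permutation p = 0.1, the smallest that 3 against 3 libraries allow). The ratio of MAGEA11 to MAGEA12 was 0.140 ± 0.036 (SD, n = 3) in WT and 0.512 ± 0.038 in sgPARP1, with the same exact permutation p of 0.1. By contrast, the ratio of MAGEA11 to MAGEA1 overlapped between the groups, at 0.190 ± 0.075 in WT and 0.160 ± 0.0065 in sgPARP1 (exact permutation p = 0.7, n = 3 each).

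**Figure D3:**
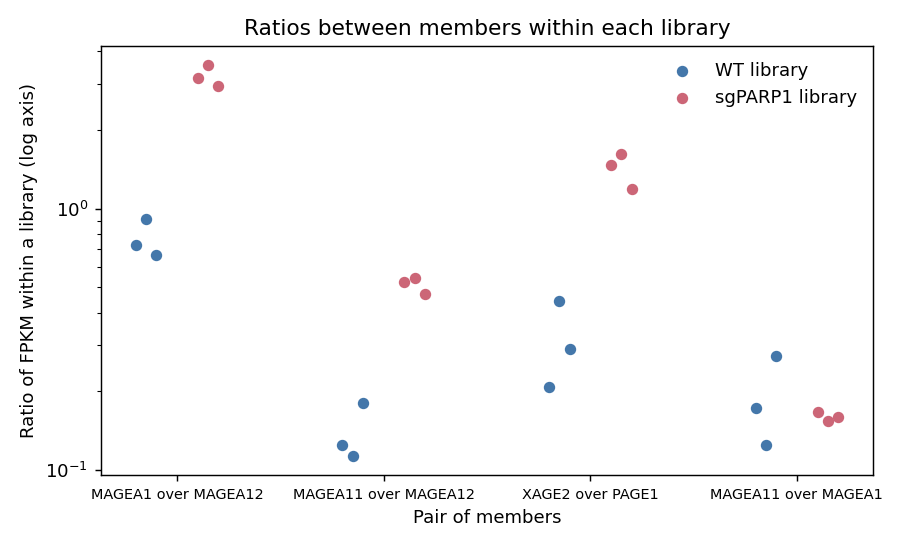
Ratios of FPKM between pairs of members within each library (log axis); each point is 1 library. WT and sgPARP1 libraries lie apart for MAGEA1 over MAGEA12, MAGEA11 over MAGEA12 and XAGE2 over PAGE1, and overlap for MAGEA11 over MAGEA1.

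MAGEA3 and MAGEA6, near copies whose proteins are known to work with the ubiquitin ligase TRIM28, were too low for the test. MAGEA3 had 7, 16 and 5 reads in WT and 4, 8 and 13 in sgPARP1, and MAGEA6 had 14, 2 and 12 in WT and 12, 11 and 16 in sgPARP1. Both overlapped between the groups. MAGEA9 had 0 to 4 reads per library in WT and 2 to 3 in sgPARP1. The other 4 MAGEA genes with a read, MAGEA2B, MAGEA4, MAGEA8 and MAGEA9B, had at most 9 reads each. MAGEA1 and MAGEA11 together made up 41.6% to 46.6% of the FPKM of the MAGEA family in WT and 73.4% to 76.7% in sgPARP1. The summed level of the family was 9.33 ± 1.35 FPKM (SD, n = 3) in WT and 20.05 ± 0.77 FPKM in sgPARP1, a ratio of 2.15. Without MAGEA1 and MAGEA11 the family summed to 5.27 ± 0.78 FPKM in WT and 4.95 ± 0.53 FPKM in sgPARP1.

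MAGEB2, a MAGE gene of the short arm of chromosome X, was the most abundant member, above 98.4% of the protein-coding genes with a read. Its level was 113, 114 and 117 FPKM in WT and 115, 122 and 119 FPKM in sgPARP1, and the groups overlapped. The log2 fold change was 0.05 (95% interval -0.03 to 0.14, limma adjusted p = 0.43). MAGEB17, the only other MAGEB gene with 10 or more reads, had 1, 9 and 2 reads in WT and 0, 5 and 0 in sgPARP1. Its overlapping antisense gene had 1 read. MAGEB3 had 0, 1 and 0 reads in WT and 3, 1 and 3 in sgPARP1. It was the only member below the tested level whose FPKM did not overlap between groups. That gap lay between 0.0277 FPKM in WT 2 and 0.0311 FPKM in sgPARP1 2, each from 1 read, so in reads the groups met. The share of all genes at such low levels whose groups lie apart was not computed. Tested without a filter on low values, MAGEB3 had an unadjusted p of 0.0329 and an adjusted p of 0.289 with limma. In that setting an unadjusted p under 0.05 was found for 7.01% of 28336 genes in the higher direction and 7.21% in the lower.

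XAGE2 (chromosome X, 52369021 to 52375680, plus strand) belongs with PAGE1 to the GAGE, PAGE and XAGE superfamily of small antigens, whose function is little known. It stood at 6.10, 9.23 and 7.20 FPKM in WT, from 66, 100 and 68 reads, and at 28.4, 24.0 and 24.2 FPKM in sgPARP1, from 279, 232 and 261 reads. All sgPARP1 libraries were above all WT libraries. The mean rose 3.40-fold, a log2 fold change of 1.65 (SE 0.136, 95% interval 1.33 to 1.98, limma adjusted p = 0.00131), the 10th highest of the genes tested. The other 4 XAGE genes had no read.

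PAGE1 (chromosome X, 49687447 to 49695984, minus strand), 2.67 Mb from XAGE2, was lower in each sgPARP1 library than in each WT library, without passing the test. It measured 29.4, 20.9 and 24.8 FPKM in WT and 19.4, 14.9 and 20.3 FPKM in sgPARP1, a difference of -27.4% between the means. The highest sgPARP1 library lay just below the lowest WT library. The log2 fold change of -0.44 (SE 0.150, 95% interval -0.80 to -0.08) did not pass the threshold after adjustment (limma, unadjusted p = 0.0223, adjusted p = 0.132). Groups did not overlap in 4 of the 8 members, PAGE1 and the 3 called, against 31.1% of all genes tested. The ratio of XAGE2 to PAGE1 was 0.313 ± 0.119 (SD, n = 3) in WT and 1.42 ± 0.214 in sgPARP1 (exact permutation p = 0.1), and the groups did not overlap in it. Both genes already lay apart between the groups, in opposite directions. That separation and its p-value were therefore fixed in advance and add no support. PAGE5 had 5 reads and PAGE2B 1, all in sgPARP1 libraries.

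CTAG2 encodes LAGE-1, a close relative of NY-ESO-1. Its level was 15.98, 13.75 and 13.58 FPKM in WT and 18.0, 13.8 and 16.7 FPKM in sgPARP1, overlapping between groups (log2 fold change 0.15, 95% interval -0.10 to 0.40, limma adjusted p = 0.44). SSX2IP, outside the SSX family despite its name, was at 5.40, 6.19 and 5.79 FPKM in WT and 6.12, 6.70 and 6.47 FPKM in sgPARP1, which overlapped by 1 library of each group (log2 fold change 0.13, 95% interval -0.01 to 0.27, limma adjusted p = 0.246). SSX1, whose protein is known from gene fusions in synovial sarcoma, had 1 read in WT and 6 in sgPARP1, 5 of them in 1 library. CTAGE4 had 7, 6 and 0 reads in WT and 10, 5 and 4 in sgPARP1. The groups overlapped in each of these genes.

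The same 3 members were called when the 13 members with 10 or more reads were tested on recovered reads with voom, where 3.51% of 19126 genes were called higher and 5.15% lower. In each of the 15 alternative settings MAGEA1, XAGE2 and MAGEA11 kept their direction and their call, with adjusted p of at most 0.00633, 0.0122 and 0.0135. PAGE1 was called in 1 of the 15, and MAGEB2, CTAG2, MAGEA12 and SSX2IP in none.

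**Figure D4:**
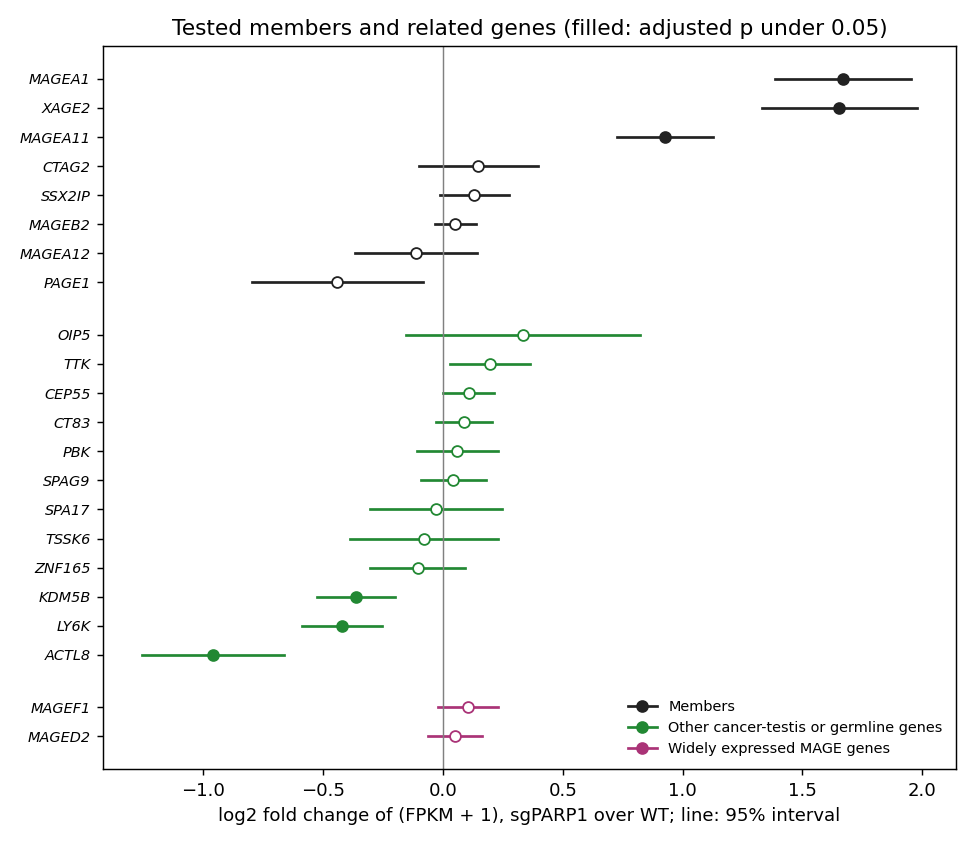
Log2 fold change of (FPKM + 1), sgPARP1 over WT, with 95% intervals, for the tested members and related genes. The related genes are the tested other cancer-testis and germline genes and the tested MAGE genes read in many tissues. Tested regulators other than KDM5B are not shown. Filled points have a limma adjusted p under 0.05. MAGEA1, XAGE2 and MAGEA11 lie right of 0 and the called related genes, ACTL8, LY6K and KDM5B, lie left of it.

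The summed level of all 101 members was 181.0, 173.5 and 176.9 FPKM in WT and 207.7, 201.8 and 208.2 FPKM in sgPARP1, a ratio of means of 1.16. Without SSX2IP and the CTAGE genes the sums were 171.2 ± 4.13 and 199.3 ± 3.77 FPKM (SD, n = 3). MAGEB2 was 64.4% to 68.7% of that sum in WT and 57.2% to 62.7% in sgPARP1. With MAGEB2 left out as well, the sums were 56.5 ± 5.06 FPKM in WT and 80.4 ± 6.95 FPKM in sgPARP1, a ratio of 1.42. The plot of the summed level shows the parts of these sums. The sums hold the called MAGEA1, XAGE2 and MAGEA11, so the rise of the sums follows in part from the calls and is no separate support for them. The ratio of means was 3.77 in MAGEA1, 3.40 in XAGE2 and 3.35 in MAGEA11. It was 1.04 in MAGEB2, 1.12 in CTAG2, 1.11 in SSX2IP, 0.904 in MAGEA12 and 0.726 in PAGE1. The sums therefore do not show a rise across the families.

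**Figure D5:**
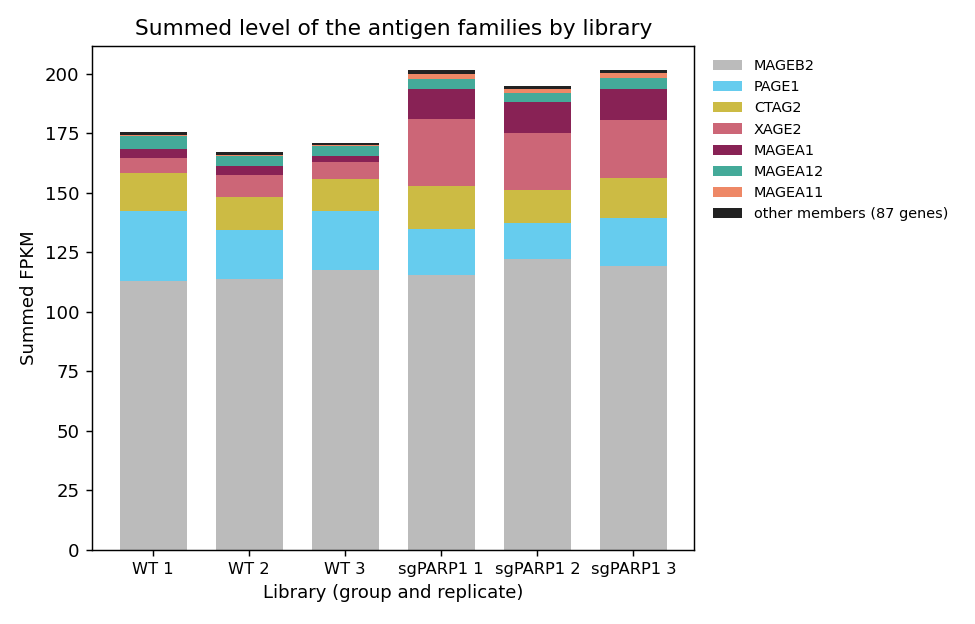
Summed FPKM of the 94 members without SSX2IP and the CTAGE genes in each library, stacked by gene. MAGEB2 makes up most of each bar, and the blocks of MAGEA1 and XAGE2 are taller in the 3 sgPARP1 libraries.

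Neighbours of the called members were the 2 nearest protein-coding genes with a read on each side. Genes at 0 were passed over, so the neighbours need not be adjacent genes. Of these neighbours, 2 reached the level tested, and neither was called. ZNF275, 150 kb from MAGEA1, had a log2 fold change of -0.03 (limma adjusted p = 0.871), and TMEM185A, 56.3 kb from MAGEA11, of -0.01 (limma adjusted p = 0.954). NSDHL, PNMA6A and ZFP92 near MAGEA1 had at most 13 reads each, as had HSFX1, MAGEA9 and MAGEA9B near MAGEA11. The neighbours of XAGE2, CCNB3, MAGED1, FAM156A and FAM156B, lie 467 to 2017 kb from it and were all below a mean of 0.5 FPKM. MAGED1, 467 kb away, was called lower in the settings that kept it, with the values given further on. Across chromosome X, 21 of the 317 other protein-coding genes tested were called, 10 higher and 11 lower, which is 6.62%.

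The MAGE genes that are read in many tissues were listed as a contrast to the antigens. Of 12 such genes 6 were at 0 and 2 were tested, MAGED2 with a log2 fold change of 0.05 and MAGEF1 with 0.11, and limma called 0, also at an unadjusted p under 0.05. MAGED1, an adaptor of cell death signalling, is the nearest protein-coding gene with a read on the lower side of XAGE2. Its mean was below the level tested. It had 57, 37 and 26 reads in WT and 0, 0 and 3 in sgPARP1, or 0.549, 0.356 and 0.287 FPKM against 0, 0 and 0.029. It was called lower in the 3 alternatives that kept it, with adjusted p = 0.00319 with voom, 0.0448 with limma from a mean of 0.1 FPKM on and 0.047 without a filter.

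None of the other cancer-testis and germline genes on a list outside these families was called higher. Of 76 listed, 72 were in the table and 29 were at 0, PRAME and CTCFL among them. Of the 12 tested, 0 were higher and 3 lower, against 3.52% and 4.44% of all genes tested. At an unadjusted p under 0.05 with limma, 2 were higher and 3 lower, against 12.1% and 12.3% of all genes. ACTL8, an actin-like testis gene, fell by 62.5%, from 3.64, 3.51 and 2.99 FPKM in WT to 0.935, 1.23 and 1.64 FPKM in sgPARP1 (log2 fold change -0.96, limma adjusted p = 0.00691). LY6K, a surface protein of the Ly6 family, fell by 25.7%, from 54.8, 48.3 and 51.7 to 38.5, 35.2 and 41.3 FPKM (log2 fold change -0.42, limma adjusted p = 0.0169). Its call was lost without WT 1, WT 3 or sgPARP1 1 (limma adjusted p = 0.0558, 0.0605 and 0.0647). The LY6K call was also lost with no filter on low values (limma adjusted p = 0.0551). KDM5B, a demethylase of histone H3 that is also a cancer-testis antigen, fell by 31.1%, from 2.43, 2.35 and 2.75 to 1.72, 1.75 and 1.72 FPKM (log2 fold change -0.36, limma adjusted p = 0.0254). Its call was lost when any 1 of the 6 libraries was left out, with limma adjusted p from 0.063 to 0.091. The KDM5B call was also lost with no filter on low values and with a replicate block (limma adjusted p = 0.0779 and 0.0753). The median log2 fold change of the 12 was 0.0074.

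Genes that act on the promoters of cancer-testis antigens, such as DNA methyltransferases, their partners and histone modifiers, were listed as well. Of the 40, 36 were tested, 0 were higher and 1 was lower, KDM5B again, against 3.52% and 4.44% of all genes tested. At an unadjusted p under 0.05, 3 were higher and 5 lower, near the 12.1% and 12.3% of all genes, and voom called 1 lower. DNMT1, which copies DNA methylation to the new strand, was at 27.15, 26.03 and 27.27 FPKM in WT and 27.7, 27.6 and 27.8 FPKM in sgPARP1 (log2 fold change 0.05, 95% interval -0.04 to 0.13, limma adjusted p = 0.485). UHRF1, which brings DNMT1 to its sites, had a log2 fold change of -0.02 (limma adjusted p = 0.846), and TRIM28, a corepressor, of 0.09 (limma adjusted p = 0.482). The RNA levels of these genes are not measures of DNA methylation, which was not analysed here.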

How the data were processed

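Gene levels of 3 WT and 3 sgPARP1 libraries, grouped by their titles, come from 1 table in which the authors deposited FPKM, that is reads corrected for gene length and depth, beside gene IDs, names, spans and lengths. Genome builds in the submitters' processing notes are mm10, GRCm38 and hg38, without a stated role. Of the gene IDs, 58260 are shared with GENCODE release 29 and 99.9% of them overlap their gene there, so coordinates are hg38. The sources used here do not give aligner, counter, strand use or versions, so overlapping genes and near-identical copies cannot be told apart.

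FPKM times length gave whole reads: all values at or under 200 reads, 12911 to 13114 in each library, were whole numbers to within 0.02 (100%). Values were tested as log2(FPKM + 1), for genes averaging 0.5 FPKM or more, with limma 3.58.1 in R 4.3.3, with a trend, no block and Benjamini-Hochberg adjustment at 0.05 over all genes tested. Folds are ratios of mean FPKM. Voom was run on recovered reads of genes with at least 10 reads in all. Intervals are 95%.

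Members, lists and tests were chosen with earlier results of these data known. Named by rule were PARP1, all members with 10 or more reads or a call, and up to 6 called genes of each list filled up to 3 with the most abundant. The rule also named the 2 nearest protein-coding genes with a read on each side of called members. DNMT1, EHMT2, members with fewer reads and genes listed at 0 were named after their values were seen. Sequences come from RefSeq (GRCh38.p14). The alternatives changed the pseudocount, filter, scaling, test and block, or left out 1 library.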

Additional observations from a re-analysis of the deposited data

How the results depend on the processing

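MAGEA1, XAGE2 and MAGEA11 kept direction and call in all 15 alternatives, with log2 fold changes of 1.52 to 1.91, 1.53 to 1.79 and 0.87 to 1.75. Over single members 119 of 120 values kept their side of the threshold, and none of them reversed. The exception was PAGE1, which the replicate block called (log2 fold change -0.44, adjusted p = 0.0423), so 4 members were called with it and 3 in every other setting. The labels do not say whether the replicate numbers pair the libraries. Deviations of same-numbered libraries correlated at 0.041, 0.081 and -0.026, and those of other pairs at -0.101 to 0.064. These values do not settle whether libraries were paired. Counts of calls moved more. Of all genes, 1048 were called, against 587 with no filter, 1657 with voom, 550 with the replicate block and 412 to 652 with 1 library left out. Of other chromosome X genes, 21 were called, against 46 with voom, 10 with the replicate block and 10 to 16 with 1 library left out. The regulators went from 1 called to 0 with no filter, 0 with the replicate block and 0 to 0 with 1 library left out; the other cancer-testis genes went from 3 to 1 with no filter and 1 to 2 with 1 library left out; the ubiquitous MAGE genes went from 0 to 1 (MAGED1) with no filter, from a mean of 0.1 FPKM on and with voom, all of which test lower genes. The cause of the other shifts was not tested. The summed level kept a ratio of 1.15 to 1.18 with 1 library left out. At least 1 read was found in 32 members and at least 10 reads in 13, against 8 at the tested level. Depth limits the 19 members with 1 to 9 reads, which were tested only with no filter and of which none was called there, MAGEB3 having the lowest adjusted p (0.289).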

Other observations

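Transcripts named after the antigen families but not protein-coding were outside the name rule. MAGEA3-DT, a long noncoding RNA that starts beside MAGEA3, had 31, 4 and 14 reads in WT and 0, 5 and 23 in sgPARP1, or 2.66, 0.343 and 1.38 FPKM against 0, 0.481 and 1.98 FPKM. The groups overlapped. CTAGE7P, a pseudogene on chromosome 10, had 14, 9 and 15 reads in WT and 10, 13 and 26 in sgPARP1. SPANXA2-OT1, a noncoding RNA named after a SPANX gene, had 0, 1 and 3 reads in WT and 0, 5 and 5 in sgPARP1, while the SPANX genes themselves had none.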
